A study of Equus asinus with 12 samples.

Results

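The SLC25 family of mitochondrial carriers was described in skeletal muscle of Equus asinus, from the Wutou and the Sanfen strains of the Dezhou donkey, a breed of China. Carriers were taken by name: every row of the deposited expression table called SLC25A followed by a number, with the most abundant row kept where a name had several. This gave 38 genes from 51 rows, out of 27084 loci in the table. There were 3 libraries from each of 4 groups, which were gluteal muscle of Wutou, longissimus dorsi of Wutou, gluteal muscle of Sanfen and longissimus dorsi of Sanfen. All animals were 24 months old, and no treatment or genetic change is recorded for any group. According to the design text, 6 donkeys gave the 12 samples. Which libraries came from one animal is not labelled, so p-values measure the spread between libraries, which may include repeated sampling of the same donkeys.

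Most carriers of this family sit in the inner mitochondrial membrane, which small charged molecules do not cross unaided. Each is built from a repeated fold that surrounds a central binding site, and most exchange a substrate of the matrix for one of the cytosol. In muscle they are known for exporting ATP to the myofibrils in exchange for ADP, for importing phosphate and acylcarnitines, and for the malate-aspartate shuttle, which moves the reducing equivalents of glycolysis into mitochondria. The gluteal mass drives the hip and the longissimus dorsi holds the back.

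Values are FPKM, fragments per kilobase scaled to the depth of a library, so levels of different genes can be set side by side. Summed FPKM ran from 214564 to 319767 per library. Reads per library were not at hand. The commonest ratio of low values to those of 1 library lay between 0.923 and 1.06, but it was shared by just 1.19% to 2.57% of the low loci compared, so depth is unknown and no counting precision is stated. The libraries were muscle by their markers: all 8 muscle fibre markers were kept for testing and ACTA1, skeletal alpha-actin, averaged 10803 FPKM. The erythroid markers ALAS2, AHSP and SLC4A1 averaged 0.0298, 0.0156 and 0.0222 FPKM. Libraries differed in fibre markers within groups. As mean deviations from each gene's average on the log2(FPKM + 1) scale, the fast fibre list averaged -0.79 in Sanfen longissimus replicate 2 and -0.64 in Sanfen gluteal replicate 1, and the slow fibre list 0.76 and 1.19. In such bulk tissue, fewer cells of a type and less RNA per cell cannot be told apart.

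A pair of carriers held most of the family's RNA. SLC25A4, the heart and muscle ADP/ATP carrier, averaged 493 FPKM over the 12 libraries, and SLC25A3, the phosphate carrier that supplies ATP synthase, averaged 199.9 FPKM. Together they made up 83.4% of the FPKM summed over the 38 carriers, and the 5 most abundant carriers 92.4%. At the other end, 14 carriers averaged under 1 FPKM. Of all 27084 loci 12408 had at least 1 FPKM in at least 3 libraries and were tested, and 26 of the 38 carriers were among them. A typical tested carrier was no more abundant than other tested loci, with a median of 2.01 against 1.89 FPKM. The family as a whole held 0.220% to 0.422% of a library's FPKM.

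**Figure D1:**
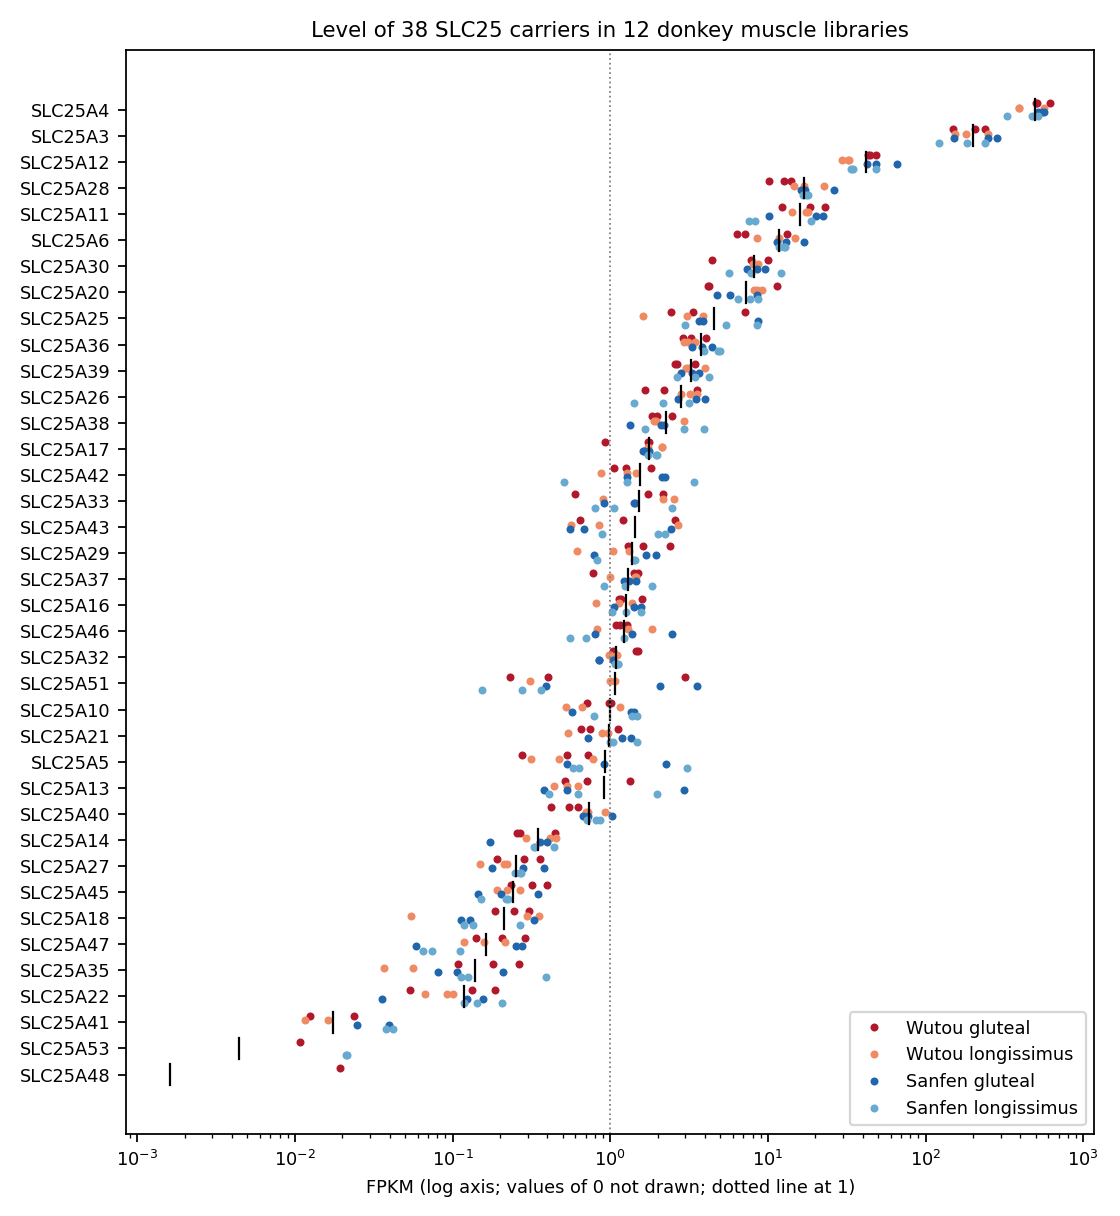
FPKM of the 38 SLC25 carriers (vertical axis, ordered by mean) in each of 12 libraries, on a logarithmic horizontal axis; each point is a library coloured by group, each black bar the mean over libraries, and the dotted line 1 FPKM. The 25 values listed at 0 are not drawn. SLC25A4, SLC25A3 and SLC25A12 stand apart at 493, 199.9 and 42.1 FPKM, and the carriers below them overlap their neighbours.

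In the order of mean levels, SLC25A4 lay above SLC25A3, SLC25A3 above SLC25A12 and SLC25A12 above SLC25A28 in 12 of 12 libraries each, with ranges that did not overlap. Below SLC25A12 the ranges of every neighbouring pair among the tested carriers overlapped. SLC25A28 and SLC25A11, at 16.9 and 15.9 FPKM, changed places between libraries, with SLC25A28 higher in 6 of 12.

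Nucleotides and phosphate. Of the ADP/ATP carriers, SLC25A4 measured 619, 501 and 511 FPKM in Wutou gluteal muscle and 390, 390 and 566 in Wutou longissimus. In Sanfen it measured 561, 548 and 513 in gluteal muscle and 517, 326 and 470 in longissimus. The lowest library was Sanfen longissimus replicate 2, and gluteal and longissimus values overlapped in both strains. The log2 change for gluteal over longissimus muscle, averaged over strains, was 0.31 (SE 0.17, adjusted p = 0.774), with a 95% confidence interval of -0.06 to 0.68. This interval allows between 0.961 and 1.60 times the longissimus value.

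SLC25A6, the ADP/ATP form found in most tissues, measured 13.2, 7.16 and 6.41 FPKM in Wutou gluteal muscle and 11.7, 8.50 and 14.8 in Wutou longissimus. Its Sanfen values were 16.9, 13.1 and 11.3 in gluteal muscle and 12.7, 11.7 and 12.8 in longissimus. SLC25A4 exceeded it by 27.8 to 79.8 times within a library. SLC25A5, the form of proliferating cells, did not pass the filter, at 0.719, 0.529 and 0.277 FPKM in Wutou gluteal, 0.316, 0.472 and 0.783 in Wutou longissimus, 2.26, 0.909 and 0.531 in Sanfen gluteal and 3.05, 0.637 and 0.580 in Sanfen longissimus. It was highest in the libraries numbered 1 of Sanfen, in both muscles. The ADP/ATP carrier genes resemble each other in sequence, and the handling of reads that fit several genes is unknown, so the split between them is uncertain. No value is given for SLC25A31, the germ cell form, which is not analysed here.

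SLC25A3 measured 150.0, 238 and 206 FPKM in Wutou gluteal muscle and 154, 247 and 179.9 in Wutou longissimus. Its values in Sanfen were 284, 248 and 151 in gluteal muscle and 182, 122 and 237 in longissimus. These groups overlapped throughout, and the average log2 change over strains for gluteal over longissimus muscle was 0.19 (95% confidence interval -0.32 to 0.69, adjusted p = 0.916). SLC25A25, a calcium-dependent ATP-Mg/phosphate carrier, measured 2.41, 3.36 and 7.12 FPKM in Wutou gluteal muscle and 1.62, 3.86 and 3.07 in Wutou longissimus. In Sanfen it measured 3.85, 3.64 and 8.67 in gluteal muscle and 2.99, 5.39 and 8.58 in longissimus. Its highest library exceeded its lowest by 5.35 times, and the groups overlapped. Its close relative SLC25A41 averaged 0.0174 FPKM and was listed at 0 in 4 libraries.

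**Figure D2:**
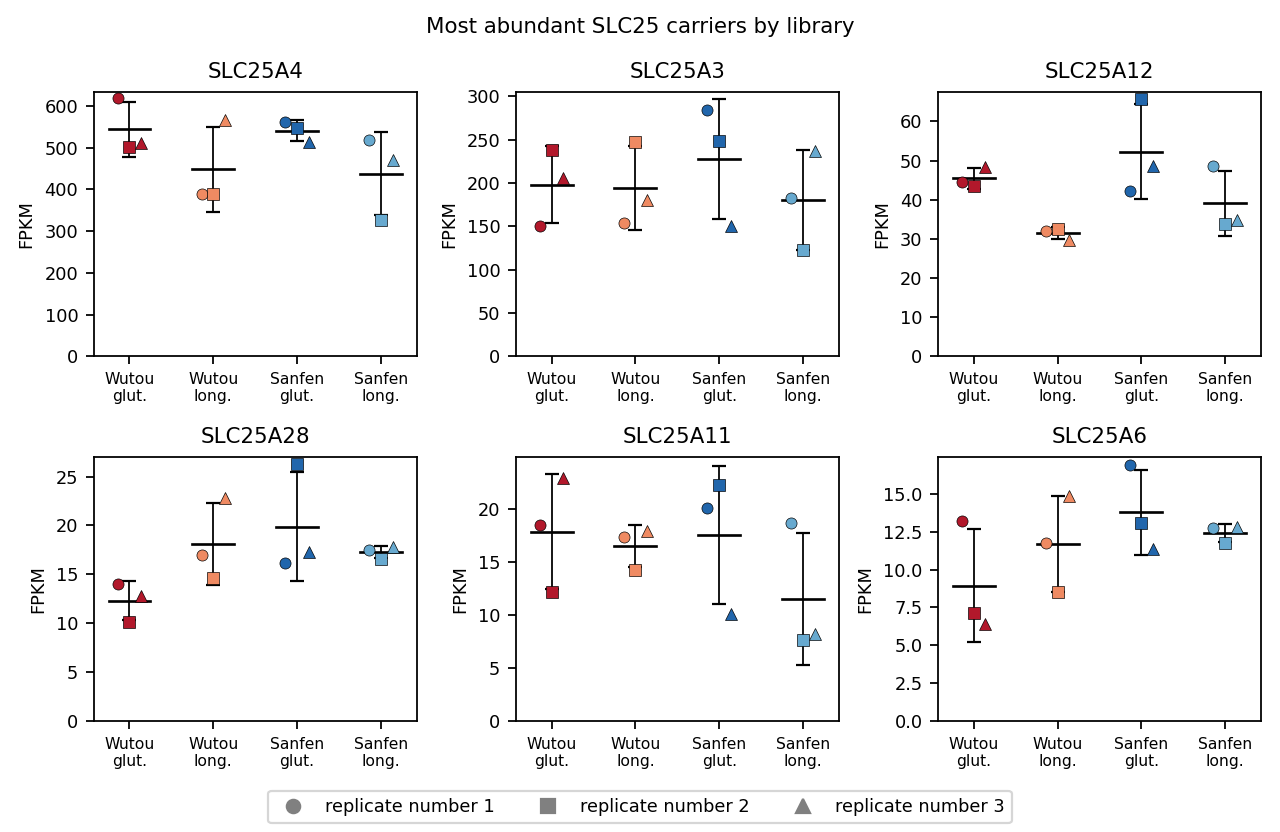
FPKM from 0 on the vertical axis for the 6 most abundant SLC25 carriers, with groups along the horizontal axis. Each symbol is a library with its shape giving the replicate number, each horizontal bar a group mean and each error bar 1 SD (n = 3). SLC25A12 averages 45.4 FPKM in Wutou gluteal against 31.4 in Wutou longissimus muscle, and SLC25A28 is lowest in Wutou gluteal muscle at 12.3.

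Shuttles and amino acids. SLC25A12, the aspartate/glutamate carrier of muscle and brain and a calcium-activated step of the malate-aspartate shuttle, was the third most abundant carrier. It measured 44.5, 43.4 and 48.4 FPKM in Wutou gluteal muscle against 32.0, 32.6 and 29.7 in Wutou longissimus, groups that did not overlap. In Sanfen it measured 42.3, 65.8 and 48.7 in gluteal muscle against 48.7, 33.7 and 34.9 in longissimus, which overlapped through the first longissimus library. Averaged over strains the log2 change was 0.46 (SE 0.15, unadjusted p = 0.0109, adjusted p = 0.745). This was the smallest unadjusted p of any carrier in the main fit of the 7 comparisons. The 95% confidence interval of 0.13 to 0.79 runs from 1.09 to 1.73 times the longissimus value. In limma with the replicate number as a fixed block, the unadjusted p was 0.0351 (adjusted p = 0.571), and 0.0782 in Wutou alone (adjusted p = 0.690). Other carriers then had smaller ones, such as SLC25A51 in Sanfen at 0.0139 (adjusted p = 0.908). SLC25A51 passed the filter through Sanfen gluteal libraries, where it was high, so its p is no independent support. Of the tested carriers SLC25A12 had the largest share of its variance between libraries lying between the 4 groups, 67.3%. SLC25A32 and SLC25A36 followed at 62.9% and 61.6%. The median over carriers was 28.0% and over all tested loci 26.6%. The share of SLC25A12 was picked as the largest and comes from the same values as its tests, so it is no separate support.

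SLC25A13, the aspartate/glutamate form known from liver, averaged 0.918 FPKM, and SLC25A12 exceeded it by 14.5 to 128 times. SLC25A11, the malate/oxoglutarate exchanger of the same shuttle, measured 18.5, 12.2 and 23.0 FPKM in Wutou gluteal muscle and 17.4, 14.3 and 17.99 in Wutou longissimus, 20.2, 22.3 and 10.1 in Sanfen gluteal muscle and 18.7, 7.63 and 8.22 in Sanfen longissimus. Its groups overlapped in every comparison. SLC25A29, a carrier of basic amino acids, measured 1.30, 2.40 and 1.61 FPKM in Wutou gluteal muscle and 1.04, 0.618 and 1.32 in Wutou longissimus. In Sanfen it measured 0.792, 1.69 and 1.95 in gluteal muscle and 1.43, 0.821 and 1.42 in longissimus. The glycine carrier SLC25A38 averaged 2.27 FPKM, while the glutamate carriers SLC25A18 and SLC25A22 averaged 0.211 and 0.118. SLC25A48 was listed at 0 in 11 of 12 libraries.

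Fatty acids and other acids. SLC25A20, which carries acylcarnitines inward for beta-oxidation, measured 4.15, 4.22 and 11.4 FPKM in Wutou gluteal muscle and 8.11, 8.52 and 9.24 in Wutou longissimus. Its Sanfen values were 4.77, 8.52 and 5.74 in gluteal muscle and 6.47, 7.75 and 8.63 in longissimus. Gluteal values spread wider than longissimus values and overlapped them in both strains; this carrier is shown for its role and not by the rule for naming genes. The dicarboxylate carrier SLC25A10 averaged 1.002 FPKM. SLC25A21, the oxodicarboxylate carrier, had 10 rows, and the most abundant of them, at 0.976 FPKM, is an assembled locus that holds no reference transcript.

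Iron, glutathione and cofactors. SLC25A28, mitoferrin 2, an iron importer of non-erythroid cells, measured 14.03, 10.1 and 12.7 FPKM in Wutou gluteal muscle. It measured 16.9, 14.7 and 22.8 in Wutou longissimus, 16.2, 26.2 and 17.3 in Sanfen gluteal muscle and 17.5, 16.6 and 17.8 in Sanfen longissimus. All 3 Wutou gluteal libraries lay below the other 9. Against Sanfen gluteal muscle the log2 change was -0.63 (SE 0.23, unadjusted p = 0.0170, adjusted p = 0.963), and against Wutou longissimus it was -0.51 (SE 0.23, adjusted p = 0.870), so the difference did not pass in either. The interaction, the muscle difference in Wutou minus that in Sanfen, was -0.67 (SE 0.32, adjusted p = 0.9998). SLC25A37, mitoferrin 1, known from red cell precursors, averaged 1.30 FPKM and had 2.70% of its variance between the groups, the least of the tested carriers. SLC25A39, which imports glutathione, was the steadiest of the 26, at 2.56 to 4.22 FPKM with a coefficient of variation of 16.6%.

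Among cofactor carriers, SLC25A36, a pyrimidine nucleotide carrier, measured 3.45, 2.92 and 3.12 FPKM in Wutou longissimus against 4.79, 4.98 and 3.94 in Sanfen longissimus, groups that did not overlap. Its gluteal values were 3.27, 4.07 and 2.91 in Wutou and 4.42, 3.81 and 3.32 in Sanfen, which overlapped. The log2 change in longissimus was -0.42 (SE 0.15, unadjusted p = 0.0194, adjusted p = 0.854). SLC25A26 carries S-adenosylmethionine, the methyl donor, into mitochondria. It measured 2.20, 1.66 and 3.57 FPKM in Wutou gluteal muscle against 3.57, 2.80 and 3.21 in Wutou longissimus, and 2.69, 4.01 and 3.48 in Sanfen gluteal muscle against 1.42, 2.16 and 3.15 in Sanfen longissimus. Its mean was thus lower in gluteal muscle in Wutou and higher in Sanfen, with groups that overlapped in each. In Sanfen the log2 change of 0.46 had an unadjusted p in limma of 0.0384 with the replicate block (adjusted p = 0.908) and of 0.0729 without it (adjusted p = 1). The interaction of -0.76 (SE 0.33, unadjusted p = 0.0406) had an adjusted p of 0.9998.

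SLC25A32, a folate and FAD carrier, measured 1.46, 1.49 and 1.03 FPKM in Wutou gluteal muscle and 0.982, 0.994 and 1.10 in Wutou longissimus, 0.849, 1.05 and 0.849 in Sanfen gluteal muscle and 1.12, 1.07 and 1.12 in Sanfen longissimus. It lay lower in Sanfen gluteal than in Sanfen longissimus muscle without overlap, with means of 0.915 ± 0.114 and 1.10 ± 0.0296 FPKM (SD, n = 3 each). SLC25A17, the peroxisomal carrier of CoA and related nucleotides, measured 0.932, 1.73 and 1.77 FPKM in Wutou gluteal muscle and 1.75, 2.13 and 2.12 in Wutou longissimus, 1.77, 1.60 and 1.64 in Sanfen gluteal muscle and 1.75, 1.95 and 1.99 in Sanfen longissimus. It overlapped between muscles in both strains, with a log2 change of -0.20 for gluteal over longissimus muscle averaged over strains (SE 0.11, adjusted p = 0.774), and of -0.12 without Wutou gluteal replicate 1. Uncoupling protein relatives were low apart from SLC25A30, at 8.19 FPKM, with SLC25A14 at 0.346 and SLC25A27 at 0.253, forms known from brain.

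None of the 26 carriers passed in any comparison. Each test was made by limma on log2(FPKM + 1), adjusted over all 12408 loci by the Benjamini-Hochberg method at 0.05, and few loci of any kind passed. For gluteal over longissimus muscle in Wutou 0 of 26 carriers were called, where 0.0% of all tested loci were. In Sanfen it was 0 of 26, with 0.0242% of loci called, and averaged over strains 0 of 26 with 0.0%. For Wutou over Sanfen it was 0 of 26 in gluteal muscle, with 0.00806% of loci called, 0 of 26 in longissimus, with 0.0161%, and 0 of 26 averaged over muscles, with 0.0%. The interaction called 0 of 26 carriers and 0.00806% of loci. At an unadjusted p under 0.05 limma gave 9 of the 182 tests of carriers.

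By comparison, those with an unadjusted p under 0.05 were SLC25A12 and SLC25A28 in the Wutou muscle comparison, 2 of 26 where 5.68% of loci reached it. SLC25A51 was the 1 of 26 in the Sanfen muscle comparison (3.57% of loci), and SLC25A12 the 1 of 26 averaged over strains (6.56%). SLC25A51 passed the filter through Sanfen gluteal libraries, the group where it was high. Between strains it was SLC25A28 and SLC25A6 in gluteal muscle (4.86% of loci), and SLC25A36 alone both in longissimus (5.52%) and averaged over muscles (5.97%). SLC25A26 was the 1 of 26 for the interaction (2.6% of loci).

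Groups that did not overlap were about as frequent among carriers as among loci at large, or rarer. Between the muscles of Wutou they did not overlap for 2 of 26 carriers (12.9% of loci), with SLC25A12 higher in gluteal muscle (8.7% of loci) and SLC25A28 lower (4.18%). In Sanfen it was 2 of 26 (7.54%), with SLC25A51 higher in gluteal muscle (6.27%), which took it past the filter, and SLC25A32 lower (1.27%). Between strains it was 1 of 26 in gluteal muscle (10.9%), where SLC25A28 was lower in Wutou (8.68%) and 0 carriers were higher (2.19%). In longissimus it was 3 of 26 (11.8%), where SLC25A12, SLC25A21 and SLC25A36 were lower in Wutou (7.92%) and 0 carriers were higher (3.88%). The SLC25A21 row used holds no reference transcript, and in the other rows of that name that passed the filter the groups overlapped. The median log2 change of the 26 carriers for gluteal over longissimus muscle was 0.05 in Wutou and 0.04 in Sanfen, beside 0.05 and 0.08 over all tested loci. For Wutou over Sanfen it was -0.13 in gluteal muscle and -0.03 in longissimus, beside -0.09 and -0.06 over all loci. By direction alone, 15 of 26 carriers were higher in gluteal than in longissimus muscle in Wutou (58.6% of all loci), 15 of 26 in Sanfen (67.6%) and 14 of 26 averaged over strains (65.9%). For Wutou over Sanfen, 7 of 26 were higher in gluteal muscle (34.2% of loci), 11 of 26 in longissimus (40.7%) and 8 of 26 averaged over muscles (35.3%), and the interaction was above 0 for 11 of 26 (45.4%). These balances depended on the scaling. With median-of-ratios rescaling, 12 of 26 were higher in gluteal muscle in Wutou, 12 of 26 in Sanfen and 12 of 26 averaged over strains, so the majority turned in each. For Wutou over Sanfen it was 9 of 26 in gluteal muscle, which did not turn, and 13 of 26 in longissimus and 15 of 26 averaged over muscles. Over all 12408 loci, 6071 to 6364 were higher in these 6 comparisons after rescaling. With quantile scaling, 14 of 26 carriers were higher in gluteal muscle in Wutou, where the majority did not turn, and 12 of 26 in Sanfen. Fibre markers also differed in direction between strains. Of the fast fibre list 9 of 9 genes were higher in Wutou than in Sanfen longissimus (median log2 change 0.62) and 6 of 9 in gluteal muscle (0.32), and of the slow fibre list 8 of 10 were lower in longissimus (-0.27) and 9 of 10 in gluteal muscle (-0.86). Without Sanfen longissimus replicate 2, 10 of 26 carriers were higher in Wutou longissimus, and without Sanfen gluteal replicate 1, 7 of 26 in Wutou gluteal muscle. The part of fibre type in the strain comparisons was not tested.

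**Figure D3:**
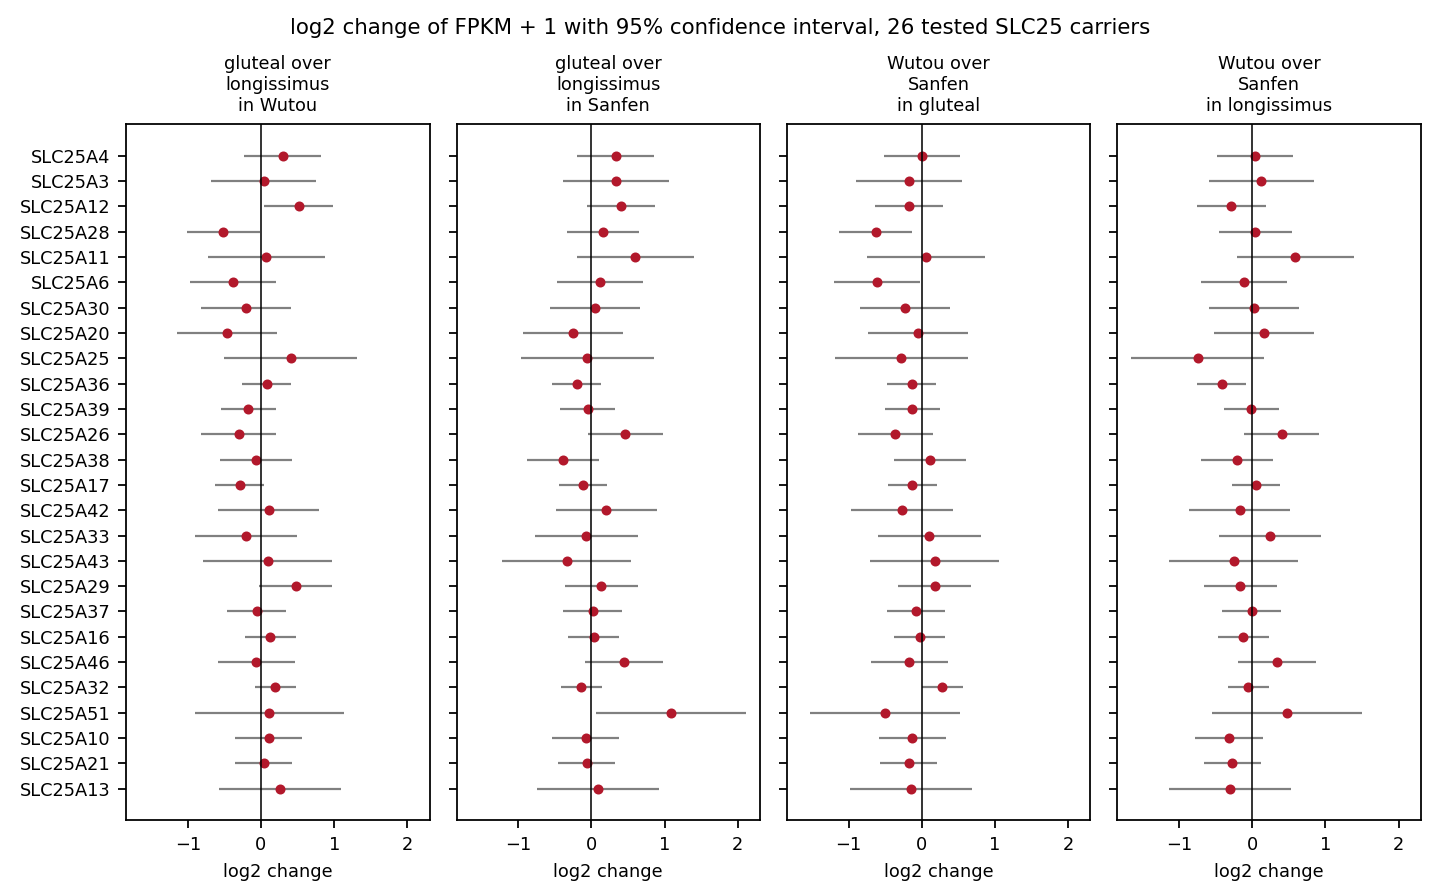
Log2 change of FPKM + 1 (horizontal axis) for the 26 tested SLC25 carriers (vertical axis, ordered by mean FPKM) in 4 comparisons, gluteal over longissimus muscle in each strain and Wutou over Sanfen in each muscle. Points are limma estimates and lines their 95% confidence intervals before adjustment. Most intervals cross 0, and SLC25A51 has the widest spread, with an estimate of 1.09 in the Sanfen muscle comparison.

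The summed FPKM of the 38 carriers ran from 568 in Sanfen longissimus replicate 2 to 993 in Sanfen gluteal replicate 1, a sum set mostly by SLC25A4 and SLC25A3. With each carrier weighted alike, the mean deviation of the 26 from their own averages on the log2(FPKM + 1) scale was lowest at -0.13 in Wutou gluteal replicate 2, followed by -0.12 in Sanfen longissimus replicate 2, and highest at 0.20 in Sanfen gluteal replicate 2. In Wutou gluteal replicate 2, 19 of the 26 lay below their average, and 16 did in Sanfen longissimus replicate 2. The 8 most abundant carriers spread wider, being lowest in those same libraries, at -0.31 and -0.33, and highest at 0.34 in Sanfen gluteal replicate 2. Other mitochondrial lists did not move as one in Sanfen longissimus replicate 2: CKMT2 with the ATP synthase subunits averaged -0.54, the import machinery -0.53, other transporters -0.16, shuttle enzymes 0.17 and a list of 9 mitochondrial content genes 0.10. In Wutou gluteal replicate 2 the same lists averaged 0.00493, 0.14, 0.05, -0.41 and -0.01, in that order. The part of fibre type or mitochondrial content in the carriers' levels was not tested.

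**Figure D4:**
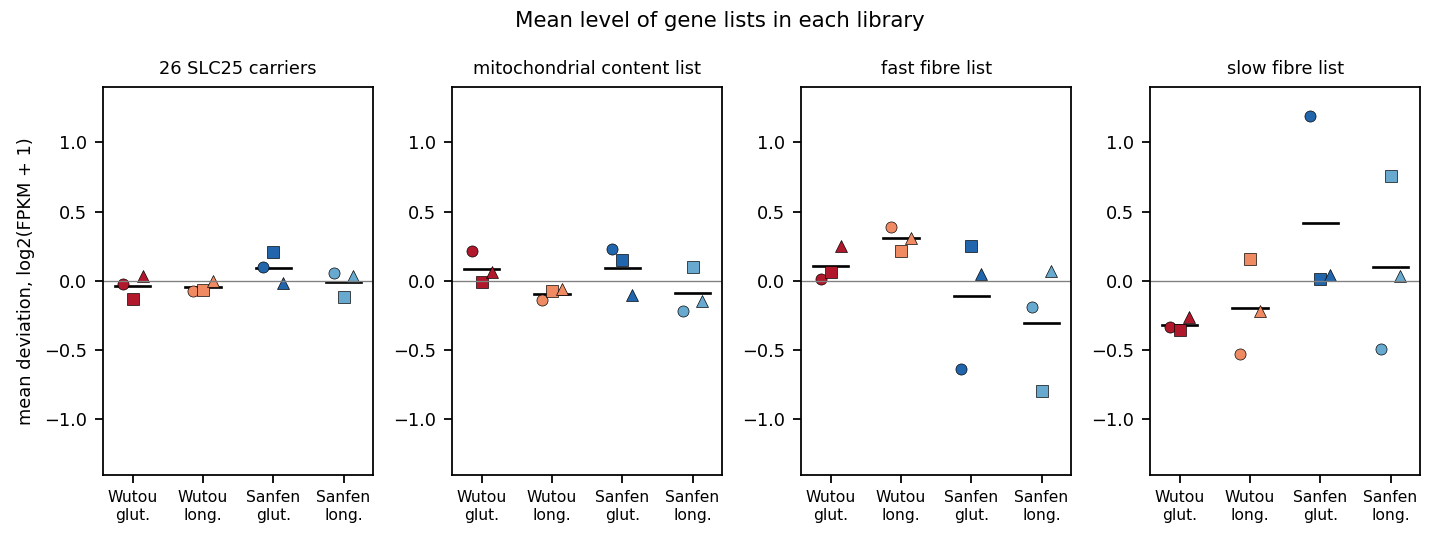
Mean deviation on the log2(FPKM + 1) scale from each gene's average over 12 libraries (vertical axis) for the 26 tested SLC25 carriers, 9 mitochondrial content genes and the fast and slow fibre lists, with the 4 groups on the horizontal axis. Symbols are libraries, shaped by replicate number, and bars are group means. Carriers stay between -0.13 and 0.20, while the slow fibre list ranges up to 1.19.

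Some carriers varied widely between libraries. SLC25A51, the mitochondrial NAD carrier, had the highest coefficient of variation of the 26, at 109%, where the median was 29.1% over carriers and 29.8% over all tested loci. This carrier had 33.9% of its variance between the 4 groups, beside medians of 28.0% over carriers and 26.6% over all tested loci. It measured 0.233, 2.97 and 0.404 FPKM in Wutou gluteal muscle and 0.312, 1.07 and 0.994 in Wutou longissimus, 2.06, 3.57 and 0.393 in Sanfen gluteal muscle and 0.276, 0.366 and 0.153 in Sanfen longissimus. Only 3 libraries, all gluteal, exceeded 1.07 FPKM. At least 1 FPKM was reached in 4 libraries, Sanfen gluteal replicates 1 and 2 among them. SLC25A51 thus passed the filter through the group where it was high, so its test in Sanfen is no independent support. In Sanfen the gluteal values lay above the longissimus values without overlap (log2 change 1.09, SE 0.47, unadjusted p = 0.0383, adjusted p = 1), by a narrow margin for the third gluteal library. The change was 0.71 without Sanfen gluteal replicate 2, and 2.15 with a pseudocount of 0.1.

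SLC25A13, the next most variable at 85.4%, was named after its values were seen, as were SLC25A43 and SLC25A33 below. It measured 1.34, 0.713 and 0.519 FPKM in Wutou gluteal muscle, 0.627, 0.533 and 0.438 in Wutou longissimus, 2.92, 0.531 and 0.381 in Sanfen gluteal muscle and 1.97, 0.621 and 0.411 in Sanfen longissimus. The library numbered 1 was highest in all 4 groups, most clearly in Sanfen, where SLC25A5 was also highest in those libraries. SLC25A13 passed the filter through these libraries, since only 3 of 12 reached 1 FPKM. The other rows named SLC25A13 were also highest in the Sanfen libraries numbered 1, at 2.21 and 1.54 FPKM in gluteal and 1.73 and 1.28 in longissimus muscle. Fibroblast and tendon markers, 5 of 6 listed genes, summed to 111, 99.6 and 86.9 FPKM in Sanfen gluteal and 153, 70.7 and 84.8 in Sanfen longissimus muscle, in order of number, and leukocyte markers, 3 of 5 listed genes, to 1.33, 4.14 and 2.15 and to 4.43, 3.01 and 2.91. Smooth muscle markers summed to 133, 129 and 60.02 and to 81.0, 69.99 and 53.4 in the same order. Endothelial markers summed to 63.5, 73.4 and 52.8 and to 41.0, 57.8 and 51.4. For adipocyte markers the sums were 10.5, 9.65 and 7.70 and 9.78, 14.6 and 9.87. The part of these cell types in the levels of SLC25A13 and SLC25A5 was not tested.

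SLC25A43, a member without a settled substrate, measured 2.56, 1.21 and 0.642 FPKM in Wutou gluteal muscle, 2.69, 0.566 and 0.851 in Wutou longissimus, 0.555, 2.44 and 0.679 in Sanfen gluteal muscle and 2.22, 0.885 and 1.998 in Sanfen longissimus. High and low libraries occurred in every group, and 6.70% of its variance lay between groups. In the RefSeq annotation of the donkey it lies next to SLC25A5 on chromosome X. SLC25A33, another pyrimidine nucleotide carrier, measured 2.17, 0.600 and 1.74 FPKM in Wutou gluteal muscle and 2.56, 0.904 and 2.15 in Wutou longissimus, so the libraries numbered 2 were lowest in both muscles. Sanfen values were 1.42, 0.908 and 1.43 in gluteal muscle and 2.48, 0.804 and 1.06 in longissimus, again lowest at number 2. The 3 libraries of a strain ranked in the same order in both muscles for 6 of 26 carriers in Wutou and 4 of 26 in Sanfen, where 22.0% of all tested loci did so in each strain.

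**Figure D5:**
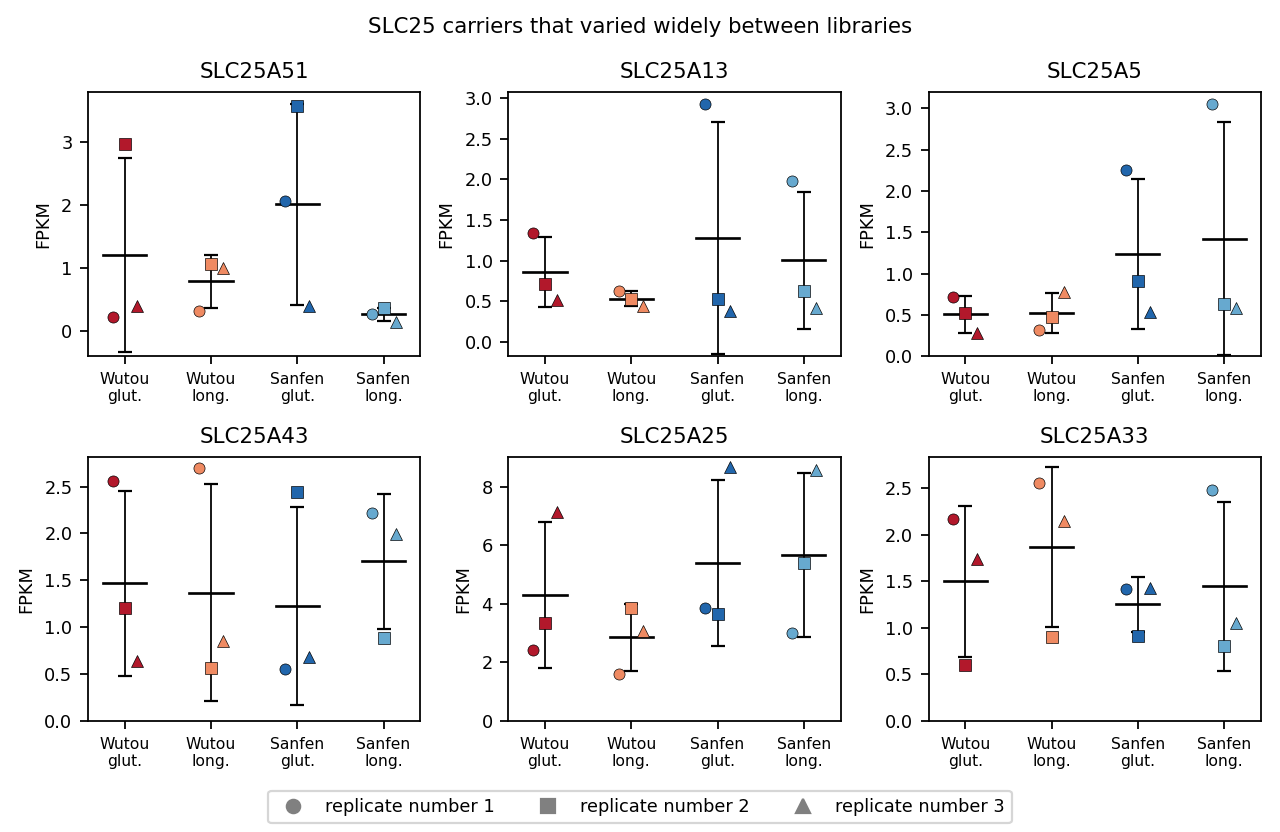
FPKM (vertical axis) of 6 SLC25 carriers that varied widely between libraries, with the 4 groups on the horizontal axis. Symbols are libraries, shaped by replicate number, horizontal bars group means and error bars 1 SD (n = 3). SLC25A51 reaches 3.57 FPKM in Sanfen gluteal muscle and stays at or below 0.366 in Sanfen longissimus, and SLC25A13 and SLC25A5 are highest in the Sanfen libraries numbered 1.

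Further family members go by other symbols or share a locus. UCP3, the uncoupling protein of skeletal muscle, averaged 11.8 FPKM and UCP2 0.487. UCP3 measured 13.6, 2.23 and 11.3 FPKM in Wutou gluteal muscle, 16.9, 1.64 and 4.40 in Wutou longissimus, 13.4, 16.6 and 20.9 in Sanfen gluteal muscle and 18.4, 3.82 and 18.8 in Sanfen longissimus. It was lowest in the libraries numbered 2 in 3 of the 4 groups. MTCH1 and MTCH2, relatives in the outer membrane, averaged 23.6 and 10.1 FPKM. The names SLC25A1, SLC25A23, SLC25A34 and SLC25A44 occur only in loci that merge them with other genes, so no level is given for them.

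Neither these relatives nor the genes that work with the carriers passed: 0 of 46 tested genes in 5 lists, 3 of them UCP3, MTCH1 and MTCH2, were called in any of the 7 comparisons, where 0.0% to 0.0242% of loci were. The list of import machinery that brings carriers to the inner membrane had 9 tested genes, of which 7 were higher in gluteal muscle averaged over strains, as were 65.9% of all loci, with a median log2 change of 0.38 beside 0.07 over all loci. TOMM22, a receptor of the outer membrane, measured 15.3, 15.4 and 23.0 FPKM in Wutou gluteal muscle against 19.0, 5.71 and 6.63 in Wutou longissimus, and 27.3, 6.14 and 16.1 in Sanfen gluteal muscle against 5.42, 5.30 and 6.43 in Sanfen longissimus (log2 change averaged over strains 1.03, unadjusted p = 0.0112, adjusted p = 0.745). Mitochondrial creatine kinase CKMT2 and 11 ATP synthase subunits, partners of SLC25A4 and SLC25A3 in ATP export and synthesis, were all 12 higher in gluteal muscle averaged over strains (median 0.19, against 65.9% of loci), and 6 of 12 were higher in Wutou alone (58.6% of loci). Other mitochondrial transporters were higher in 13 of 14 (median 0.15). Of these, MPC1, a subunit of the pyruvate carrier, had a log2 change of 0.55 (unadjusted p = 0.0301, adjusted p = 0.745). Markers of some other cell types in the tissue were higher in gluteal muscle too, and those of others were not. Averaged over strains, 1 of 4 tested adipocyte genes was higher (median log2 change -0.16). For fibroblast and tendon it was 2 of 4 (0.02) and for leukocytes 0 of 1 (-0.55). Of the endothelial list 5 of 5 genes were higher averaged over strains (median 0.30), with summed levels of 38.8 to 72.7 FPKM in Wutou gluteal, 40.01 to 52.8 in Wutou longissimus, 52.8 to 73.4 in Sanfen gluteal and 41.0 to 57.8 in Sanfen longissimus muscle. Of the smooth muscle list 4 of 4 were higher (median 0.34), with sums of 59.6 to 103 FPKM in Wutou gluteal, 66.2 to 81.9 in Wutou longissimus, 60.02 to 133 in Sanfen gluteal and 53.4 to 81.0 in Sanfen longissimus muscle. None of these markers averaged under 0.1 FPKM, and their part in the levels of the mitochondrial lists was not tested. Counts of direction for the lists here and below were made without the median-of-ratios rescaling that turned the carriers' majority in the muscle comparisons.

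In the enzymes of the carnitine and malate-aspartate shuttles, 6 of 8 tested genes were higher in gluteal muscle averaged over strains (median 0.07). GOT2, the mitochondrial aspartate aminotransferase whose product SLC25A12 exports, measured 72.7, 75.6 and 91.7 FPKM in Wutou gluteal muscle against 209, 103 and 174 in Wutou longissimus, without overlap. This was the opposite direction to SLC25A12 in the same libraries (log2 change -0.96, unadjusted p = 0.0225, adjusted p = 0.870, against 0.52 and adjusted p = 0.870 for SLC25A12). In Sanfen GOT2 measured 102, 220.0 and 159 in gluteal muscle against 179.7, 209 and 102 in longissimus, which overlapped.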

How the data were processed

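Gene expression was read from 1 deposited table of FPKM values, per the file headers, with 1 column for each of the 12 libraries and 27084 loci, some of them assembled loci that merge several genes. The submitters' processing notes name cutadapt, Bowtie2 and TopHat2; the genome build, the program that gave the FPKM and the handling of reads that fit several genes are not given in the sources used here. Merged or split loci and shared reads can therefore move a gene's level, and no reads or counts were recovered, so no depth or counting interval is stated.

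Loci with at least 1 FPKM in at least 3 of the 12 libraries were kept (12408). Values were tested as log2(FPKM + 1), a pseudocount of 1, which understates the changes of low genes. limma 3.58.1 in R 4.3.3 was fitted to all 4 groups in 1 model with 7 comparisons, and p-values were adjusted by the Benjamini-Hochberg method over all kept loci at 0.05. For strains averaged over muscles, libraries of one strain that share a number formed a random block (consensus correlation 0.188). The fit without a block was tested on simulated independent libraries, for every comparison except the interaction. The random block and shared donkeys were not simulated. Libraries were grouped by strain and muscle from their labels.

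The replicate numbers were checked for pairing: deviations of gluteal and longissimus libraries with the same number correlated at 0.246, 0.110 and 0.158 in Sanfen, which met the limit of 0.1 for every pair, and at 0.182, 0.165 and 0.0711 in Wutou, which did not. Libraries of unlike number correlated at no more than -0.000829 in Sanfen and 0.0126 in Wutou. Deviations from a group mean cancel out within the group, so low values for unlike numbers follow from positive same-number values. They are no separate evidence of pairing. The muscle comparisons nevertheless carry no block in either strain, and the random block above covers both strains, as set at the outset; the other fits are among the alternatives. Alternatives were a pseudocount of 0.1, no filter or a filter at 5 FPKM, median-of-ratios and quantile scaling, summed rows for a name, each library left out, only the compared libraries, and the block. Values in every library are given for the 3 carriers with the smallest p in each comparison, the 5 most abundant and the ADP/ATP carriers, a rule that took 14 carriers; others are named as such. The carriers, gene lists and rule were chosen with earlier results of these data known. Gene neighbours came from RefSeq, assembly EquAss-T2T_v2. Some results are not reported here.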

Additional observations from a re-analysis of the deposited data

How the results depend on the processing

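No carrier was called under any alternative: 0 of 142 fits of the 7 comparisons called one with limma, and the smallest adjusted p of a carrier in any fit was 0.549. For the carriers with the 3 smallest p in each comparison alone, none of 394 values under the alternatives reversed or crossed the threshold; directions of other carriers did turn, as the counts under rescaling show. With the fixed replicate block, 0 carriers were called in the muscle comparisons and the interaction; carriers with an unadjusted p under 0.05 were 2 in Sanfen and 1 in Wutou with it, against 1 and 2 without it. In Sanfen the block gave SLC25A51 an unadjusted p of 0.0139 (adjusted p = 0.908). This is no independent support, since SLC25A51 passed the filter through the group where it was high. In Sanfen 1 locus of any kind was called with the block, against 3 without it. Same-number libraries met the correlation limit there, but no label shows that they came from the same donkeys. The strain comparison averaged over muscles called 0 carriers with no replicate block as well. Leaving out each library in turn, 0 were called throughout, and carriers higher in Wutou averaged over muscles numbered 6 to 13 of 26, with 13 reached without Sanfen longissimus replicate 3, against 8 with all libraries. In gluteal muscle alone they numbered 6 to 11, with 11 reached without Wutou gluteal replicate 2, against 7. Without a filter 38 carriers were tested and at 5 FPKM 9, so counts of direction are not comparable with the 26. That no carrier was called does not show that levels were equal.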
